A study of Mus musculus with 3 samples.

Results

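The keratins of simple epithelia and the desmosome genes were followed in mouse embryonic stem (ES) cells as they lost Oct3/4. The set holds 8 genes chosen by name, the keratin genes Krt8, Krt7, Krt18 and Krt19 and the desmosome genes Dsp, Pkp2, Dsc2 and Dsg2. They were chosen with earlier results of these data known. All probe sets that the array annotation assigns only to 1 of these genes were taken, 21 of the 45037 analysed, for 8 of the 18193 genes with a probe set. In these ES cells Pou5f1, which encodes the pluripotency factor Oct3/4, could be knocked out conditionally, and the question was how expression responds to its absence. Affymetrix arrays were hybridised with total RNA of day 0, day 1 and day 2, with 1 array per day. All 3 samples carry the conditional allele, and the sources used here do not give how the knockout was induced, which promoter drove any recombinase, or whether the line was a single clone. No culture without the knockout at day 1 or day 2 was analysed here, so loss of Oct3/4 and time in culture cannot be told apart.

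Keratins are the intermediate filament proteins of epithelial cells. A filament is built from pairs of a type II keratin, such as the products of Krt8 and Krt7, and a type I keratin, such as those of Krt18 and Krt19, and the keratin 8 and keratin 18 pair is the first to appear in the mouse embryo, in the trophectoderm. Desmosomes are the junctions that anchor these filaments at the cell surface: desmogleins and desmocollins are cadherins that hold neighbouring cells together, plakoglobin (Jup) and plakophilins bind their tails, and desmoplakin (Dsp) links this plaque to keratin.

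Values are the deposited signals after a scaling that left them all but unchanged. Differences are on the log2(signal + 55.9) scale, where 55.9 is the 40th percentile of all signals, so that the change of dim genes is understated. A gene is represented by its brightest kept probe set, and a difference of 1 is 2-fold. With 1 array per day there are no replicates and no test. The only error available is how far probe sets of 1 gene differ. Pooled over 5906 genes, its SD was 0.34 for the whole span of both days and 0.30 for either single step. It covers probe error and leaves out variation between cultures. Signals of different genes are not compared, because probes differ in brightness.

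Pou5f1 went with the day labels. Its signal read 2400.4 at day 0, 40.8 at day 1 and 15.5 at day 2. The 10 ES cell markers, Nanog, Sox2 and Zfp42 among them, all stood between 2400.4 and 35755 at day 0, and their summed signal read 121490 at day 0, 73306 at day 1 and 25153 at day 2. Of 10 fibroblast markers, 7, including Col1a1 and Col3a1, had a mean signal below the constant, and the summed signal of the list came to 776 at day 0, 674 at day 1 and 601 at day 2. Thy1, 1 of the 3 measured, read 400, 275 and 89.3 on these days, a difference of −1.65 at day 2 against day 0. Col1a2 (0.26) and Pdgfrb (0.62) were within 2-fold.

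At day 2, all 4 keratin genes and 2 of the 4 desmosome genes were at least 2-fold above day 0. That is 6 of 8 members, where 5.25% of the 12717 measured genes were at least 2-fold higher. None of the 8 was at least 2-fold lower, against 5.65% of measured genes. Because the members were chosen with earlier results of these data known, these shares are a description and not a test. The median difference was 2.49 for the keratin members and 0.96 for the desmosome members, beside 0.05 for all measured genes. Dsg2 alone among the members was below day 0 at day 2.

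**Figure D1:**
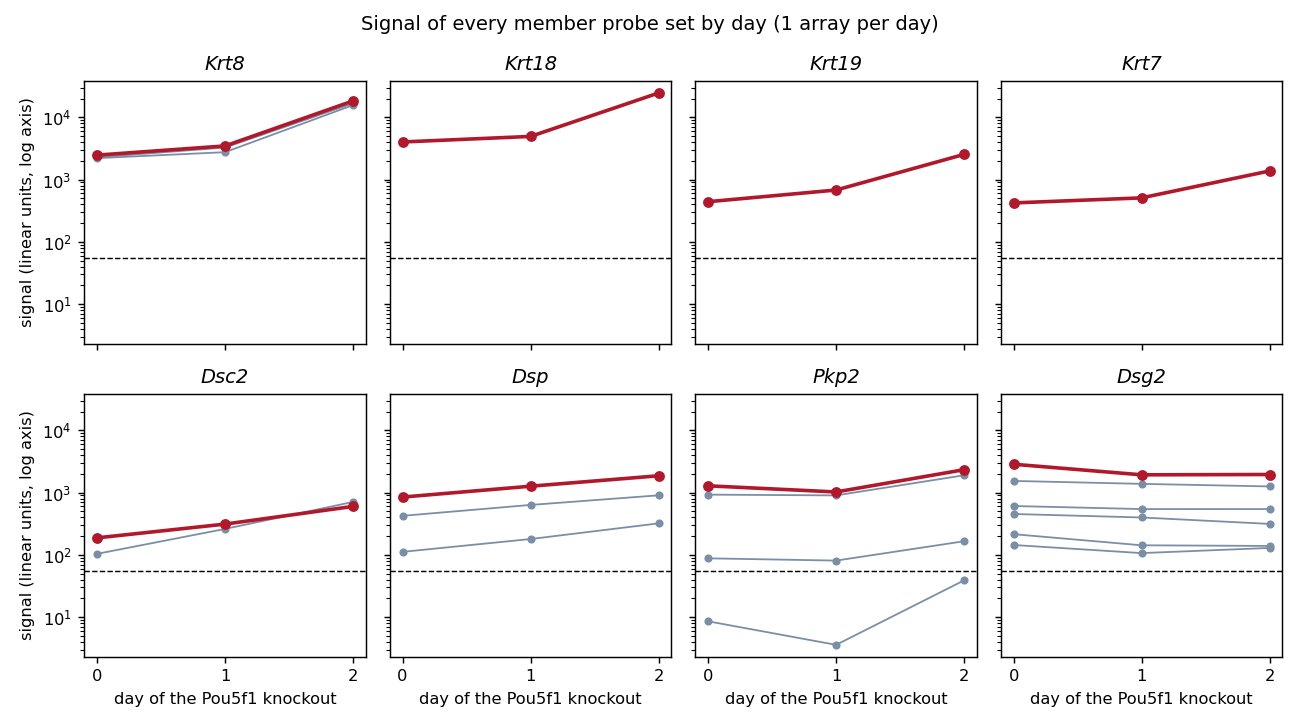
Signal (linear units on a log axis) of all 21 member probe sets at day 0, day 1 and day 2, 1 panel per gene. The red line is the probe set that represents the gene, grey lines are its other probe sets and the dashed line is the constant of 55.9; the keratin panels turn steeply upward after day 1, and the 6 lines of Dsg2 stay nearly flat.

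Among the type II keratins, Krt8 had the larger difference. Its representing probe set, 1420647_a_at, read 2474 at day 0, 3475 at day 1 and 18358 at day 2, and the other probe sets read 2278, 3273 and 16808, and 2212, 2758 and 15733, on the same days. All 3 were far higher at day 2 than on either earlier day. Krt8 was higher by 2.86 at day 2 against day 0, or 7.28-fold, the 14th highest of 12717 genes. Its probe sets gave 2.80 to 2.86, with a mean of 2.84 ± 0.03 (SD over 3 probe sets, which share a target and are not replicates). A pseudogene, Krt8-ps, is annotated on chromosome 7, and 2 of the Krt8 probe sets end in _x_at, which marks probes that may also match other transcripts; whether it adds to the signal was not tested.

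Krt7, a type II keratin of ducts and of trophoblast, was measured by the single probe set 1423952_a_at. Its signal read 423 at day 0, 509 at day 1 and 1379 at day 2, so day 2 stood apart from the other days here too. The difference at day 2 was 1.58, the smallest of the 4 keratins and 173rd among all genes. It was 1.28 below that of Krt8, where the pooled spread gives a gap between 2 probe sets an SD of 0.49.

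Both type I keratins were higher as well. Krt18, which encodes the usual partner of keratin 8, read 4026 at day 0, 4938 at day 1 and 24609.8 at day 2 (probe set 1448169_at). It was higher by 2.60 (6.04-fold, 25th of all genes), and the 0.27 between Krt8 and Krt18 was within the gap SD of 0.49. Krt19, the smallest keratin, which lacks a tail domain, read 442 at day 0, 680.3 at day 1 and 2543 at day 2 (probe set 1417156_at). It was higher by 2.38 (5.22-fold, 40th). The differences of Krt8, Krt18 and Krt19 thus spanned 0.48, within the gap SD, and that of Krt7 was smaller. In bulk RNA, more keratin RNA per cell and more cells that make keratin cannot be told apart.

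Promoter sequence was at hand for 4 members, from the RefSeq promoter table of mouse build GRCm38.p6, as windows of 300 bases from 250 before to 50 after the annotated start. They are shown because these were the only members with a window, and were not picked by their values. All 4 genes were at least 2-fold higher at day 2 than at day 0, Krt8 and Krt18 by closely similar amounts. Krt19 and Dsc2 were also at least 2-fold higher, but no sequence was at hand for them. The course of Dsp over the days differed from that of the keratins, as given below. Each window is printed 5′ to 3′ on the strand of its gene. Capitals mark CAGGTG, an E-box that repressors of the SNAI and ZEB families bind, and the TATA box TATAAA, each searched on both strands (read as CACCTG and TTTATA on the other strand). The windows are Krt8 at chr15:102004293-102004592 (minus strand), Krt18 at chr15:102027966-102028265 (plus strand), Krt7 at chr15:101412153-101412452 (plus strand) and Dsp at chr13:38151044-38151343 (plus strand).
Krt8: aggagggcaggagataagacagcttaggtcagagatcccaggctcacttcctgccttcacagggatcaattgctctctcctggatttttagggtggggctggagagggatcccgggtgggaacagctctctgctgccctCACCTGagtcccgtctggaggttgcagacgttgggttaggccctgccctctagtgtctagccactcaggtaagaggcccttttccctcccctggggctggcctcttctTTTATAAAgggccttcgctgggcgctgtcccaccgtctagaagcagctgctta
Krt18: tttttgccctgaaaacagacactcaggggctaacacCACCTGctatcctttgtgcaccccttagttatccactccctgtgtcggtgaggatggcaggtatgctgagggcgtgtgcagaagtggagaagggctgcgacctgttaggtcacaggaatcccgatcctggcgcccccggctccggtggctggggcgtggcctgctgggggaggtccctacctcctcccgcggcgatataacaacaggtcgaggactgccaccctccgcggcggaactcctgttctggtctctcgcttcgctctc
Krt7: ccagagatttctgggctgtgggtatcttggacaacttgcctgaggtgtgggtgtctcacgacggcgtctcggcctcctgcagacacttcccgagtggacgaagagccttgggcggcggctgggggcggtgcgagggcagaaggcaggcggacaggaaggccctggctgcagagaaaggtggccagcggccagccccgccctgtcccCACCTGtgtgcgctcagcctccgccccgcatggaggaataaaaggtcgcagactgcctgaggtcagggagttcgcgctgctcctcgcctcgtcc
Dsp: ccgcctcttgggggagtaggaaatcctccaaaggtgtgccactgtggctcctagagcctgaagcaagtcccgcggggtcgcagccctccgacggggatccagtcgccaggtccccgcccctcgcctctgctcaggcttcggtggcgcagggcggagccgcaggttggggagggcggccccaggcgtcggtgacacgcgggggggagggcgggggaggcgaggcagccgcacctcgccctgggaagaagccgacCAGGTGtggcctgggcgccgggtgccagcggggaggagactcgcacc

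The E-box letters occurred once in each of these 4 windows, and 20.2% of all 32851 windows in the table hold them. They began 111 bases before the start in Krt8, 214 before it in Krt18 and 44 before it in Krt7, and at base 4 after it in Dsp. TATAAA was found only in Krt8, where a match on each strand overlaps the other at the annotated start, and 13.6% of windows hold it. GGGCGG, the GC box, was present 4 times each in Krt7 and Dsp and in neither Krt8 nor Krt18 (35.7% of windows). GCCNNNGGC, the AP-2 site, was present 2 times in Krt7, 1 time in Krt18 and 1 time in Dsp (16.6% of windows). AGATAA, which factors of the Gata3 family bind, was present 1 time in Krt8 (11.2% of windows). TGANTCA (AP-1), GGAATG (TEAD) and ATGCAAAT (octamer) had no match in these 4 windows on either strand, and 7.81%, 14.7% and 1.74% of all windows hold them. The GC content of the windows was 58% for Krt8, 61.3% for Krt18, 66.3% for Krt7 and 73% for Dsp, beside a median of 52.7%, so shares over all windows are not matched for base composition. A match describes the letters and is not evidence of binding.

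The desmosome genes were split. Dsp, the gene of desmoplakin, read 849 at day 0, 1269 at day 1 and 1866 at day 2 (probe set 1435494_s_at), a stepwise increase with no jump at day 2. It was higher by 1.09 at day 2 (2.12-fold, 548th of all genes). Its 3 probe sets gave 1.00 to 1.17, with a mean of 1.09 ± 0.08 (SD), so Dsp lay just past the 2-fold line. It was at 0.96 when the ribosomal protein genes were given equal medians on all arrays.

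Dsc2, the desmocollin of simple epithelia, read 188 at day 0, 313 at day 1 and 601 at day 2 in its representing probe set, 1426911_at. The other probe set, 1421156_a_at, read 104, 262 and 710 on the same days. Both increased at each step, but by different amounts. The difference at day 2 was 1.43 (2.69-fold, 251st) in the first and 2.26 in the second, an SD of 0.59 between them, wider than the pooled 0.34. Dsc2 was therefore at least 2-fold higher by either probe set, by 2.69-fold or 4.79-fold.

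Pkp2, a plakophilin of the desmosomal plaque, read 1287 at day 0, 1026 at day 1 and 2338 at day 2 (probe set 1449799_s_at). Day 1 was the lowest and day 2 the highest. The difference at day 2 was 0.83 (1.78-fold, 1001st), short of 2-fold. The 3 kept probe sets gave 0.62 to 0.99, with a mean of 0.82 ± 0.18 (SD). The 4th probe set, 1420259_at, read 8.60, 3.60 and 39.1, below the constant on all 3 days, and was the only 1 of the 21 member probe sets that the filter removed.

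Dsg2, the desmoglein of simple epithelia, was also the member with the most probe sets, 6. The brightest, 1439476_at, read 2858 at day 0, 1933 at day 1 and 1956 at day 2. The others ranged from 144 to 1542 at day 0, from 107 to 1384 at day 1 and from 129 to 1258 at day 2. All 6 were lower at day 2 than at day 0, by −0.53 to −0.11 with a mean of −0.34 ± 0.18 (SD), and none reached 2-fold. Set beside Dsc2, the other desmosomal cadherin among the members, the gap at day 2 was 1.96 against a gap SD of 0.49.

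**Figure D2:**
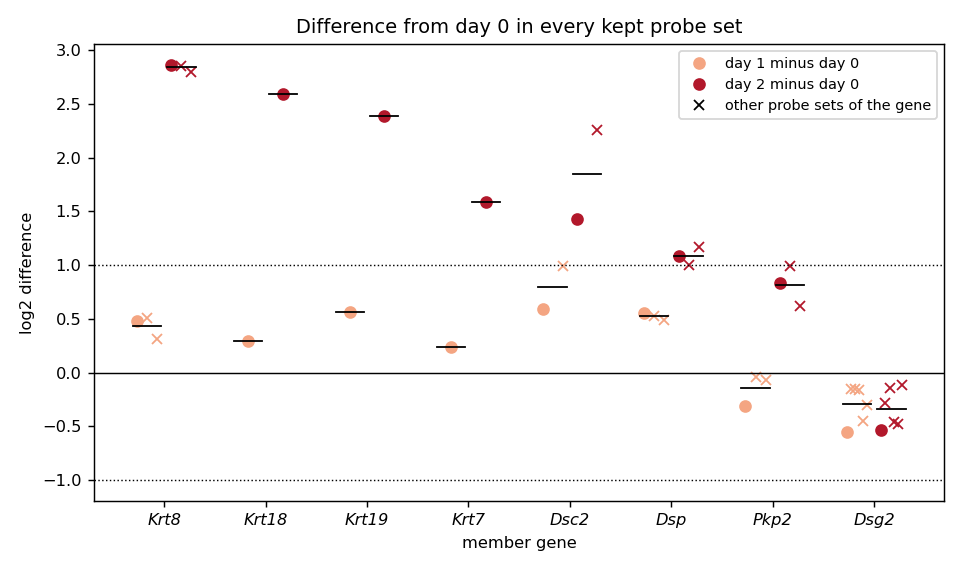
Log2 difference from day 0 (vertical axis) in the 20 kept probe sets of the 8 member genes (horizontal axis), for day 1 (light) and day 2 (dark). Circles are representing probe sets, crosses the others, black bars the mean over probe sets and dotted lines 2-fold; the probe sets of Krt8 lie between 2.80 and 2.86 at day 2, those of Dsc2 are 1.43 and 2.26, and all 6 of Dsg2 are below 0.

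The members differed in timing. At day 1, when Pou5f1 was already at 40.8, 0 of 8 members were at least 2-fold higher, where 2.4% of measured genes were, and 0 were at least 2-fold lower, where 2.59% were. The keratins were between 0.24 (Krt7) and 0.56 (Krt19) above day 0, with Krt8 at 0.48 and Krt18 at 0.29. None of these differences exceeded 2 times the pooled SD of 0.30, and Krt8 ranked 1704th and Krt18 3196th among all genes.

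Between day 1 and day 2, 5 of 8 members were at least 2-fold higher, against 2.09% of measured genes, and 0 were at least 2-fold lower, against 2.65%. The limit from choosing members with earlier results known holds for these shares too. Krt8 was higher by 2.38 and Krt18 by 2.30, the 14th and 15th highest genes of this step. Krt19 was higher by 1.82, Krt7 by 1.34 and Pkp2 by 1.15. The mean over the kept probe sets of Pkp2 was 0.96, with the lowest at 0.70, so its call depends on the probe set. The keratin genes thus showed most of their difference in this step, and Pkp2 was not above day 0 before it. The step rests on the day 2 array, the only one with values for 64 control probe sets. Whether that array was processed apart is not stated. Leaving out the probe sets with the endings _a_at, _s_at and _x_at, which removes Krt8 and Krt7 altogether, 3 of the 6 members left were at least 2-fold higher.

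Dsp and Dsc2 had the steadier course. Dsp was higher by 0.55 at day 1 against day 0 and by 0.54 at day 2 against day 1, and Dsc2 by 0.60 and 0.83. The second probe set of Dsc2 gave 0.99 and 1.27. Dsg2 took another course, at −0.55 in the first step and 0.02 in the second. All 6 of its probe sets were below day 0 at day 1, by −0.55 to −0.15. The sign of the second step differed between probe sets, from −0.30 to 0.19, so no direction is given for it.

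**Figure D3:**
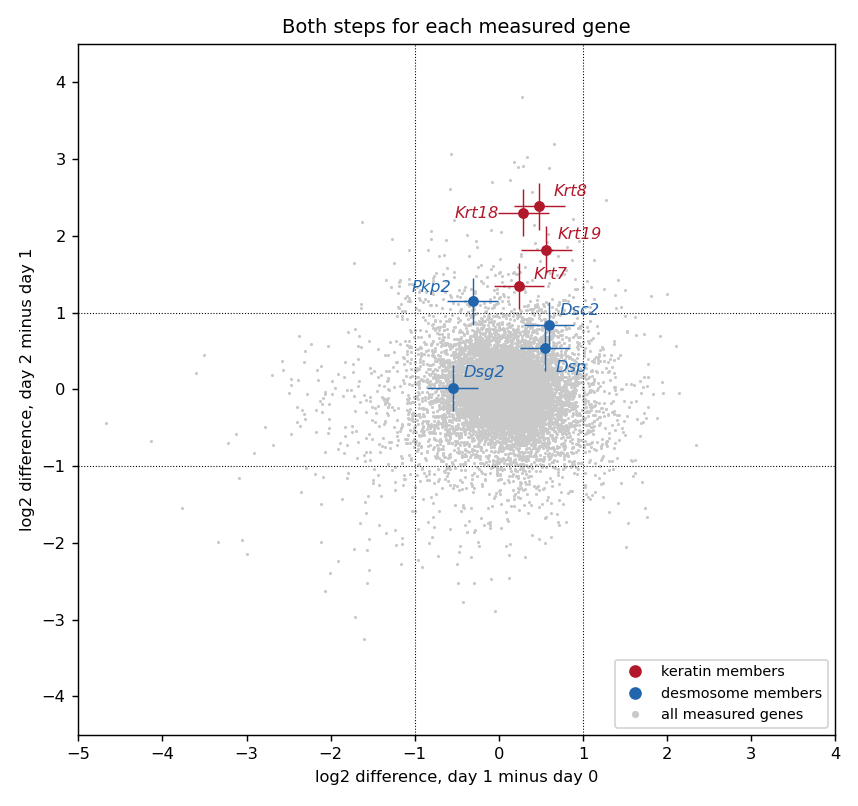
Log2 difference at day 1 minus day 0 (horizontal axis) against day 2 minus day 1 (vertical axis) for all 12717 measured genes (grey), with keratin members in red and desmosome members in blue. Bars are the pooled SD between probe sets (0.30 on both axes) and dotted lines mark 2-fold; the keratins lie between 1.34 and 2.38 on the vertical axis, while Dsp and Dsc2, at 0.55 and 0.60 on the horizontal axis, reach only 0.54 and 0.83 on it.

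The rest of the keratin family was mostly dim. Of 20 other type II keratins with a probe set 11 were too dim to measure. The 9 left had a median of 0.05 at day 2, and 0 of them passed 2-fold in either direction. Over all measured genes 5.25% were at least 2-fold higher and 5.65% lower, so 0 of 9 is near that share. The one nearest to no difference was Krt80, at 0.01. Of 23 other type I keratins 18 were too dim. The 5 measured ones had a median of −0.49, and Krt17, a keratin of basal and injured epithelium, was lower by −1.30 (signal 206 at day 0, 78.5 at day 1 and 50.5 at day 2). Krt42, named after its values were seen, read 2522 at day 0, 2533 at day 1 and 1269.9 at day 2, a difference of −0.96. Among 9 markers of stratified epithelium with a probe set, 5 were too dim, Krt14 and Trp63 included, 0 passed 2-fold, and Krt5 was at 0.26. With 4 measured, a count of 0 is again near the share over all measured genes. The summed signal of these markers came to 847 at day 0, 1061 at day 1 and 613 at day 2.

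Further desmosome genes were mostly dim or within 2-fold. Of 9 with a probe set, 5 were too dim (Dsg1a, Dsg1b, Dsc1, Dsc3 and Pkp1). Among the 4 that could be measured 0 passed 2-fold upward at day 2 and 1 downward, beside 5.25% and 5.65% of all measured genes. That 1 was Jup, the gene of plakoglobin, which read 1580 at day 0, 577 at day 1 and 520.4 at day 2, a difference of −1.50 of which −1.37 was present at day 1. Perp, a membrane protein of desmosomes, was lower at day 1 by −0.98 and higher by 1.34 from day 1 to day 2, for a difference of 0.36 over both days. Pkp3 was at −0.09 and Pkp4, a relative that also occurs at adherens junctions, at −0.40. Plaque genes and cadherin genes of desmosomes therefore each had members on both sides of 0 at day 2: Dsp and Pkp2 above and Jup below, and Dsc2 above and Dsg2 below.

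Among 9 measured plakin and hemidesmosome genes, whose products tie keratin to junctions and to the basement membrane, 0 passed 2-fold in either direction, with a median of 0.37. Over all measured genes 5.25% were at least 2-fold higher and 5.65% lower, so 0 of 9 is near that share. Dst, a hemidesmosome linker, was nearest to no difference at −0.16. The list ran from Itgb4 at −0.47 to Ppl at 0.95, both named after their values were seen. Intermediate filament genes outside the keratins moved both ways: of 15 measured, 3 were at least 2-fold higher and 2 lower, with a median of −0.05. Nefm (1.65), Nefl (1.57) and Prph (1.25) were higher, from day 0 signals of 23.9, 209 and 40.2, the first and last of which lay below the constant. Ina (−2.82, signal 1563 at day 0, 1258 at day 1 and 173 at day 2) and Nefh (−1.99) were lower. Vim, the gene of vimentin, which mesenchymal cells and ES cells in culture make, was named after its values were seen: its signal read 9561 at day 0, 12280.5 at day 1 and 5841 at day 2, a difference of −0.71.

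**Figure D4:**
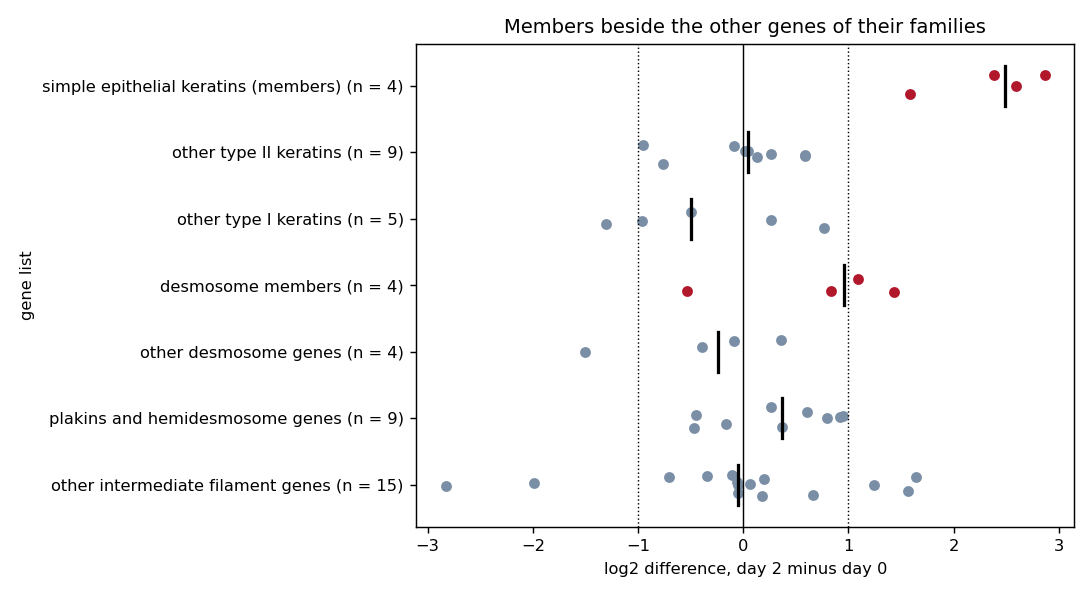
Log2 difference at day 2 minus day 0 (horizontal axis) for each measured gene of 7 lists (vertical axis), with the keratin and desmosome members in red, other genes of their families in grey, and a black bar at each median. All 4 keratin members lie to the right of every other keratin measured, the nearest of which is Krt32 at 0.77. Most of the other keratins measured have signals near the constant, which understates their differences.

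The neighbours of the members were also read, as the 5 protein-coding genes on each side in the RefSeq gene order, a choice made after values were seen. Krt8 and Krt18 are next to each other on chromosome 15, where Krt18 is the type I gene at the end of the type II cluster. Of their 10 neighbours 6 were measured and 0 passed 2-fold at day 2, from Krt79 at −0.08 to Spryd3 at 0.65, with Krt4 at 0.13 and Eif4b at −0.08. A count of 0 among 6 is near the share over all measured genes, 5.25% higher and 5.65% lower. Around Krt19, in the type I cluster on chromosome 11, Krt13, Krt14, Krt15 and Krt16 were too dim, and of the 3 measured neighbours Krt17 and Krt42 were below day 0 and Krt32 (0.77) above it. Around Krt7, elsewhere on chromosome 15, 5 of 10 neighbours were measured, 0 were at least 2-fold higher and 1, Nr4a1, was lower by −1.44. Dsc2 and Dsg2 share the desmosomal cadherin cluster of chromosome 18 with Dsc1, Dsc3, Dsg1a and Dsg1b, and only Dsc2 and Dsg2 of these 6 were measured. Of 16 genes between and around them 7 were measured, 0 were at least 2-fold higher and 2 were lower, Rnf125 (−2.06) and Rnf138 (−1.58).

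Of 20 genes of epithelial transcription factors 18 were measured, 5 were at least 2-fold higher at day 2 and 1 lower, with a median of 0.52. Over all measured genes 5.25% were at least 2-fold higher and 5.65% lower. Gata3 and Cdx2 are also among the trophectoderm markers described below. Gata3 (2.56, from a day 0 signal of 54.7 just below the constant) and Cdx2 (2.09), both trophectoderm regulators, were already higher at day 1, by 1.25 and 2.14. Jun (2.28), a subunit of AP-1, Elf3 (1.55), an ETS factor of epithelia, and Tfap2c (1.21), an AP-2 factor, had most of their difference after day 1, with signals of 363, 662 and 1983 for Jun over the 3 days, 1115, 1598 and 3369 for Elf3, and 2810, 3460 and 6584 for Tfap2c. Klf5, an ES cell factor that also acts in epithelia, was lower by −1.92, all of it at day 1 (−1.95).

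Markers of other cell types that make these keratins were also read. Of 8 measured trophectoderm markers, 7 were at least 2-fold higher at day 2, with a median of 2.27, where 5.25% of all measured genes were. The summed signal of the 10 with a probe set came to 1890.3 at day 0, 5441 at day 1 and 13206 at day 2. Plac1 (4.10), Ascl2 (3.86), Gata3, Esx1 (2.44), Cdx2 and Dlx3 (2.08) were the furthest, and Elf5 and Tpbpa were too dim to measure. Unlike the keratin members, 5 of the 8 were at least 2-fold higher at day 1, where 2.4% of measured genes were. Eomes was among these at 1.04, but was below day 0 at day 2 (−0.32). Plac1 (0.28), Ascl2 (0.66) and Dlx3 (0.03) were within 2-fold at day 1 and, like the keratins, had most of their difference after it. Of 8 measured primitive endoderm markers, 3 were at least 2-fold higher at day 2, Col4a1 (1.89), Gata6 (1.46) and Dab2 (1.33), and 0 lower, with a median of 0.59. Lamb1 (0.94) was above day 0 but short of 2-fold, with signals of 1137, 2118 and 2229. Gata4 (−0.43) and Sox17 (−0.27) were below day 0, but their signals lay near the constant. They read 76.0, 59.4 and 41.9 for Gata4 and 86.2, 69.7 and 61.9 for Sox17 over the days. Sparc (0.13) and Pdgfra (0.23) were near day 0. In this list 3 of 8 were at least 2-fold higher at day 1, where 2.4% of measured genes were. At day 2 against day 1, 0 of 8 were so, which is near the 2.09% of measured genes. The sum over 12 came to 8812 at day 0, 15699.9 at day 1 and 14307 at day 2, and Sparc alone gave 5972, 9357 and 6559 of it. Sox7, Foxa2, Afp and Ttr were too dim. The part of either cell type in the keratin result was not tested.

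The genes whose pair of steps lay nearest to the mean of Krt8 and Krt18, by Euclidean distance over 2 log2 differences from 3 arrays, were Ndrg1 (distance 0.21), Dkk1 (0.23), Bcor (0.38), Ltc4s (0.44) and Cdkn1c (0.46). Ndrg1 read 501 at day 0, 687 at day 1 and 3212 at day 2. Ltc4s was below the constant at day 0 and day 1. Nearest to Dsp were Galnt3 (0.0070), Clic1 (0.017) and Gm9112 (0.026), and Clic1 had signals of 2045, 3008 and 4436. These names describe likeness on 3 arrays only.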

How the data were processed

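Total RNA was labelled with biotin by a one-cycle kit, per the labels' protocols, and hybridised to 1 array at each of day 0, day 1 and day 2. The values deposited by the authors are linear probe set intensities made with MAS5, per the submitters' processing notes (version not given in the sources used here). In the values themselves, the arrays share a 2% trimmed mean of 498. The 64 control probe sets with a value only at day 2 were left out, which left 45037; whether that array was processed apart is not stated, and this bears on all day 2 differences. Here each array was scaled to the common trimmed mean, the 40th percentile of all signals (55.9) was added and log2 taken, with Python 3.11.15 and pandas 2.3.3. Probe sets with a mean signal of at least 55.9 were kept (59.8%), and the brightest kept probe set stood for its gene, leaving 12717 genes. Genes were named from the platform annotation, in which 932 probe sets name several genes and were not used for genes. The steps were tested on simulated data. The number of arrays limits the precision.

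No test was possible. Members, lists and alternatives were chosen with earlier results of these data known. Named were all members, up to 6 genes past 2-fold at day 2 per list or the one nearest to no difference, all measured desmosome genes, Pou5f1, and the genes with the nearest course. Other constants, filters, scalings and ways to summarise probe sets were tried.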

Additional observations from a re-analysis of the deposited data

How the results depend on the processing

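The 24 member differences were recomputed under 8 alternatives, except that the 6 of Krt7 and Krt8 had no value without the probe sets named next. In all alternatives that gave a value 23 kept their sign, the exception being Dsg2 at day 2 against day 1 (−0.04 to 0.07). The number of members at least 2-fold higher at day 2 against day 1 was 3 in place of 5 when probe sets with the endings _a_at, _s_at and _x_at were left out, because Krt7 and Krt8 have no other probe set. Dsc2 at day 2 against day 0 was 1.84 as the mean over its probe sets. Calls at the 2-fold line changed for Dsp at day 2 against day 0 (0.96 with equal ribosomal protein medians), Dsc2 at day 2 against day 1 (1.05 as the mean over probe sets) and Pkp2 in the same step (0.96 as that mean). Equal ribosomal protein medians moved the median of all genes by −0.12 and turned the split of 668 higher and 718 lower genes at day 2 against day 0 into 530 and 863. The constant changed how many genes passed: 856 were higher and 867 lower with a constant of 27.9, and 472 and 540 with 112. Some list medians at day 2 against day 0 moved by at least the pooled SD of 0.34. With a filter at the 60th percentile, primitive endoderm markers had 1.33 in place of 0.59, from 5 genes. Other type II keratins then had 0.58 in place of 0.05, from 1 gene. Without a filter, other type I keratins had −0.04 in place of −0.49. Medians of the stratified epithelium and fibroblast lists, not given above, moved as well. No paired analysis was possible because each day has 1 array.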
